A study of Mus musculus with 6 samples.

Results

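The clustered, or replication-dependent, histone genes supply the histones that wrap newly copied DNA, and their messenger RNAs were measured in livers lacking Fam210a in hepatocytes. Members were the protein-coding genes of the count table whose symbol starts with Hist1h, Hist2h, Hist3h or Hist4h. The rule found 67 genes among 54532 genes in the table, of which 22046 were protein-coding. The Hist1 cluster on chromosome 13 holds 54 of them, the Hist2 cluster on chromosome 3 holds 10, the Hist3 cluster on chromosome 11 holds 2, and Hist4h4 lies on chromosome 6. By class there were 6 genes for the linker histone H1, 18 for H2A, 18 for H2B, 12 for H3 and 13 for H4.

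Whole liver of mice aged 5 weeks was sequenced in 3 libraries from mice whose hepatocytes were made to lack Fam210a (Fam210aHKO, a hepatocyte-specific knockout) and 3 libraries from control mice (Ctrl). FAM210A is a mitochondrial inner membrane protein, and the comparison asks what its loss from hepatocytes does to the juvenile liver. The alleles of the controls, the promoter that drives the recombinase, the sex and the strain are not stated in the sources used here, and liver cells other than hepatocytes keep the gene. Messenger RNA was enriched on poly-T beads, which capture RNA with a poly(A) tail. The genotype labels of Fam210aHKO replicates 2 and 3 name other gene numbers, so the groups follow the sample titles. Nothing in the labels says that the samples of a group came from separate animals, so the spread that p-values measure is the spread of these samples and may be technical.

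Most histone mRNAs of the clusters are made in S phase and are the only known animal mRNAs that normally lack a poly(A) tail. Their pre-mRNA is cut just past a short hairpin, the stem-loop, which is bound by the stem-loop binding protein Slbp and processed with the U7 snRNP. When DNA synthesis stops, these RNAs are degraded within a short time. Some of the genes also carry an ordinary polyadenylation signal further downstream, and in cells that have left the cell cycle they give polyadenylated mRNAs that poly-T beads can capture. Hepatocytes of the growing liver still divide, and those of the adult liver rarely do.

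The stem-loop is printed here for 4 genes because it marks where the tailless form of each mRNA ends. Each line runs 5′ to 3′ in the direction of the gene, from GENCODE mouse release 21 on mm10, with the stem-loop in capitals. The Hist1h1c line lies at chr13:23739507-23739532 (plus strand), Hist1h1d at chr13:23555782-23555807 (plus), Hist1h4h at chr13:23531453-23531478 (plus) and Hist1h4i at chr13:22040961-22040986 (minus).
Hist1h1c: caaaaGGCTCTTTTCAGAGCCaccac
Hist1h1d: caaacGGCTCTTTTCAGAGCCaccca
Hist1h4h: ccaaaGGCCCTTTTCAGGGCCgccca
Hist1h4i: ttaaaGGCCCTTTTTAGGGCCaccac
The H1 pair share the letters of the hairpin, and the H4 pair have other letters in the stem. Transcript models carry on for 840 bases past this hairpin in Hist1h1c, 4884 in Hist1h1d, 46 in Hist1h4h and 330 in Hist1h4i.

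A search of the GENCODE transcript models for the 16-base histone stem-loop consensus found it in 46 of the 67 genes and in 68 of 21901 protein-coding genes (0.31%), so members made up 67.6% of the genes that hold it. The form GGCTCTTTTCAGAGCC was found in 26 members, 3 of them H1, 10 H2A, 8 H2B and 5 H3 genes. The form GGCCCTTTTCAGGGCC was found in 7 members, all of them H4 genes. In 23 members the model ended within 100 bases past the hairpin, in 23 it ran on further, and in 21 no hairpin lay in the model.

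A polyadenylation signal, AATAAA or ATTAAA, lay in the last 50 bases of a transcript model in 17 of the 67 members, against 77.9% of all 21901 protein-coding genes. It is shown for the 3 genes called higher that hold it and for Hist2h2be, with the signal in capitals. These lie at chr13:23740330-23740359 (plus strand), chr13:23531476-23531505 (plus), chr13:22040639-22040668 (minus) and chr3:96223705-96223734 (plus).
Hist1h1c: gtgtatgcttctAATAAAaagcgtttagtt
Hist1h4h: ccacattttcttATTAAAagagcgaacatg
Hist1h4i: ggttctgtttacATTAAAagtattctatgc
Hist2h2be: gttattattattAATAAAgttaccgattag
In Hist1h4h the signal starts just past the hairpin, so a stem-loop end and a polyadenylated end would lie within the same 46 bases. No such letters were found in the last 50 bases of Hist1h1d or Hist1h2bc. Members with no hairpin in the model had a median length of 405 bases, against 539 over all members. A model that stops early cannot show a hairpin or signal further downstream, so the counts of both depend on the annotation.

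The promoters of the 4 genes called higher are shown as the 150 bases before the RefSeq start (GRCm38.p6), with motif matches on either strand in capitals. They cover chr13:23738657-23738806 (plus strand) for Hist1h1c, chr13:23554882-23555031 (plus) for Hist1h1d, chr13:23530894-23531043 (plus) for Hist1h4h and chr13:22041363-22041512 (minus) for Hist1h4i.
Hist1h1c: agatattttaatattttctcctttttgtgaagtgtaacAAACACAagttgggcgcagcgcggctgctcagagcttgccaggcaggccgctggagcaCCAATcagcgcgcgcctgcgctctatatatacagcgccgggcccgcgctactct
Hist1h1d: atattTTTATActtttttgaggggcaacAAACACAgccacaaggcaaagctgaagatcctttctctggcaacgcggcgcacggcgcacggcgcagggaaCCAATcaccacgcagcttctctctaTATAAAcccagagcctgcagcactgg
Hist1h4h: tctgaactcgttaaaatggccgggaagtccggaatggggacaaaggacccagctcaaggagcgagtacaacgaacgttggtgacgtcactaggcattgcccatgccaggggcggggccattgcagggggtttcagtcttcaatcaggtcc
Hist1h4i: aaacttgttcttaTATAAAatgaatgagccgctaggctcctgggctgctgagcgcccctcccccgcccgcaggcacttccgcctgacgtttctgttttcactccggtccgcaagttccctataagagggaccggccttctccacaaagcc
Motifs searched on both strands were the CCAAT box, the TATA box as TATAAA, the H1 box of linker histone genes as AAACACA, and the octamer motif bound by Pou2f1 as ATTTGCAT, each counted independently of the others. Among the 62 members with a RefSeq promoter, in the window from 250 bases before to 50 after the start, CCAAT was found in 53 (85.5%), against 37.4% of 32851 promoters. TATAAA was found in 35 (56.5%), against 13.6%. The H1 box was found in 9 (14.5%), against 7.18%, and 5 of these 9 were H1 genes out of 6 in all. The octamer was found in 14 (22.6%), against 1.74%, in 7 of 18 H2A and 7 of 16 H2B genes. Windows of neighbouring H2A and H2B genes can overlap, as for Hist1h2ae and Hist1h2bg, so the same site can count for both genes. Of 12 H4 promoters 3 held CCAAT, and the Hist1h4h window held none of the 4 motifs.

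Library totals were 17.6, 12.5 and 19.7 M counts (M, 1e6) in Fam210aHKO replicates 1 to 3, against 13.0, 15.5 and 16.9 M in Ctrl, and values below are in that order of replicates. Levels are counts per 1e6 after TMM scaling (CPM), and 3 counts in a library corresponded to 0.132 to 0.261 CPM. TMM factors averaged 1.17 in Fam210aHKO and 0.855 in Ctrl. Scaling by library totals instead moved the median change of all tested genes up by 0.45 on the log2 scale, so all changes are relative to the typical gene. With library totals 42.7% of all tested genes were called higher and 6.33% lower. Fam210a was at 31.7, 28.6 and 44.2 CPM in Fam210aHKO, against 119, 136 and 162 CPM in Ctrl (log2 fold change -1.99, SE 0.194, edgeR adjusted p = 4.42e-05). Ribosomal RNA, which has no poly(A) tail, was counted apart from that of mitochondria. It took 0.918% of counts in Fam210aHKO replicate 1, and 0.00763% to 0.0282% in the other 5 libraries.

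The poly-T selected libraries held few counts of clustered histone genes apart from 2 genes. Poly-T beads select for tailed RNA, so these counts do not give the level of tailless histone RNA in the liver. Hist1h1c (the linker histone gene named H1f2 in RefSeq) and Hist1h2bc (an H2B gene) together gave 94.6% of the 30712 counts of all 67 members. Members received 7148, 7202 and 6699 counts in Fam210aHKO, against 2330, 3787 and 3546 in Ctrl. At least 1 count was seen for 40, 39 and 43 members in Fam210aHKO, against 27, 27 and 29 in Ctrl. Of all 22046 protein-coding genes 68.2%, 66.6% and 69.1% had a count in Fam210aHKO, against 66.0%, 66.2% and 66.1% in Ctrl. Fam210aHKO replicate 2 had the lowest total of the 6 libraries, but after TMM scaling a count was worth more CPM in Ctrl replicates 1 and 2 than in that library. Over all libraries 50 members had a count and 17 had none, 11 of these being H2A genes.

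Per kilobase of gene length the order of levels was steep. Hist1h1c averaged 182 CPM per kilobase in Fam210aHKO and 91.7 in Ctrl, and Hist1h2bc averaged 63.0 in Fam210aHKO and 81.2 in Ctrl. The next was Hist1h4h at 9.21 in Fam210aHKO and 3.91 in Ctrl, followed by Hist1h4i at 3.35 in Fam210aHKO and 1.56 in Ctrl. Hist1h4k, Hist2h2be, Hist2h3c2, Hist1h2bg, Hist3h2a and Hist1h4j completed the first 10, each between 0.716 and 1.56 CPM per kilobase in Fam210aHKO and between 0.266 and 1.25 in Ctrl. Taken over all 6 libraries, the values of neighbours among these last 6 genes overlapped.

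Of the 67 members 10 passed the filter on low counts, and 4 of these were higher in Fam210aHKO, Hist1h1c, Hist1h4h, Hist1h1d and Hist1h4i, at an adjusted p under 0.05 (edgeR quasi-likelihood test, Benjamini-Hochberg over 13706 genes). Among all tested genes 14% were called higher and 13.5% lower. None of the 10 members was called lower, where 1 had an unadjusted p under 0.05, and DESeq2 and limma-voom also called 0 lower. The genes called higher encode 2 linker histones and 2 copies of H4. Without Fam210aHKO replicate 2, in which 3 of the 4 had their highest level, none of the 4 was called, while without replicate 1 or replicate 3 of that group 4 and 2 of them were. Without Ctrl replicate 1 none was called, without Ctrl replicate 2 only Hist1h1c and without Ctrl replicate 3 only Hist1h4h.

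Hist1h1c (ENSMUSG00000036181, chr13:23738808-23740367, 1 exon) was at 258.5, 382.2 and 209.6 CPM in Fam210aHKO, against 98.35, 201.0 and 129.9 CPM in Ctrl. The groups did not overlap, but Fam210aHKO replicate 3 and Ctrl replicate 2 lay within a few percent of each other, and replicate 2 was the highest of its group in both. Means were 283.5 ± 89.0 CPM in Fam210aHKO and 143.1 ± 52.6 CPM in Ctrl (SD, n = 3 each), which gave a log2 fold change of 0.99 with an SE of 0.274 (edgeR adjusted p = 0.0207). Leaving out Fam210aHKO replicate 2, Ctrl replicate 1 or Ctrl replicate 3 gave edgeR adjusted p of 0.0819, 0.085 and 0.0834. Of its 50-base windows 91.5% occur in no other annotated transcript.

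Hist1h4h, an H4 gene at chr13:23531050-23531519, was at 3.11, 6.33 and 3.55 CPM in Fam210aHKO, against 1.48, 1.54 and 2.49 CPM in Ctrl, from 65, 92 and 81 counts against 17, 19 and 37. All Fam210aHKO libraries were above all Ctrl libraries, with replicate 2 the highest of its group. On the log2 scale the difference was 1.21 with an SE of 0.343 (edgeR adjusted p = 0.0232). Without Fam210aHKO replicate 2, Ctrl replicate 1 or Ctrl replicate 2 the edgeR adjusted p was 0.103, 0.0867 and 0.0743. Only 54.2% of its 50-base windows are its own, since the coding sequence is shared with other H4 genes.

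Hist1h4i, a further H4 gene at chr13:22040636-22041362, was at 1.82, 3.30 and 2.19 CPM in Fam210aHKO, against 0.9565, 0.974 and 1.48 CPM in Ctrl. The groups again did not overlap. A log2 difference of 1.06 with an SE of 0.346 resulted (edgeR adjusted p = 0.0414), and the call was lost with DESeq2 (adjusted p = 0.0587) and limma-voom (adjusted p = 0.0703). Leaving out any library except Fam210aHKO replicate 1 also ended it, with edgeR adjusted p from 0.0539 to 0.162. Its own 50-base windows made up 71.1%.

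Hist1h1d (H1f3 in RefSeq, chr13:23553262-23560686) encodes another linker histone and had few reads, 13, 18 and 30 counts in Fam210aHKO against 4, 1 and 6 in Ctrl. Its level was 0.622, 1.24 and 1.32 CPM in Fam210aHKO, against 0.348, 0.0812 and 0.403 CPM in Ctrl, with no overlap. Its log2 difference was 1.87 with an SE of 0.561 (edgeR adjusted p = 0.0297) and a wide 95% interval of 0.768 to 2.97. Leaving out any library except Fam210aHKO replicate 1 ended the call (edgeR adjusted p from 0.0528 to 0.0941), as did limma on log2(FPKM + 1) (adjusted p = 0.105) and on log2(FPKM + 0.1) (adjusted p = 0.0553). The model of this gene is 7425 bases long, and 97.7% of its 50-base windows are its own. The promoter shown above lies inside this model, which also runs 4884 bases past the hairpin. Both the counts and the window share therefore cover more than the stem-loop mRNA, and where the reads fell was not tested.

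**Figure D1:**
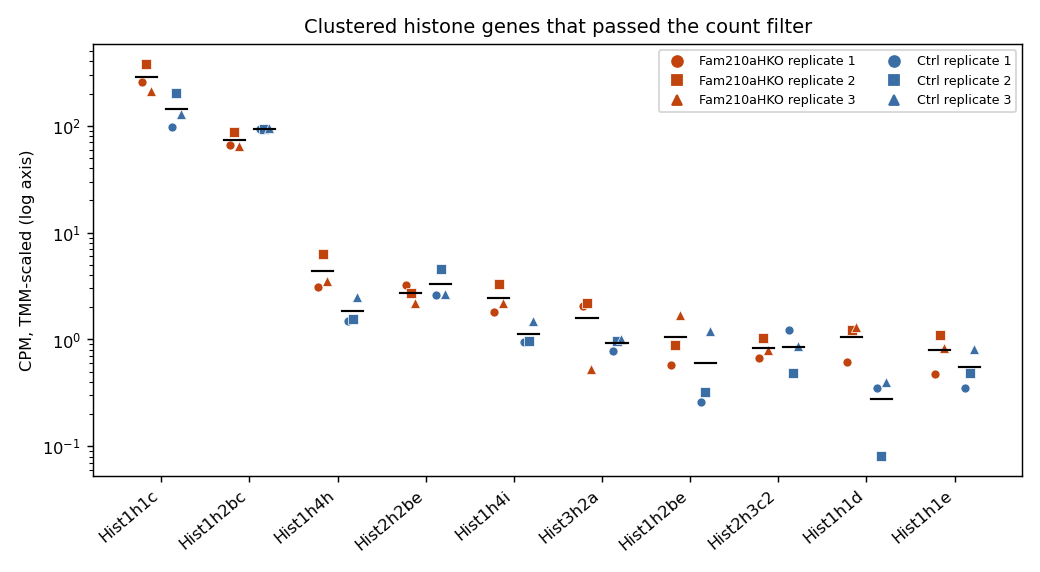
CPM of the 10 clustered histone genes that passed the count filter, on a log axis, with 1 symbol for each library and a bar for the group mean (Fam210aHKO left, Ctrl right). Hist1h1c and Hist1h2bc lie far above the rest, and Hist1h1c, Hist1h4h, Hist1h4i and Hist1h1d have all Fam210aHKO libraries above all Ctrl libraries.

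Hist1h2bc, the second most abundant member, lies in the same cluster as Hist1h1c and was not called. It was at 66.1, 87.85 and 64.7 CPM in Fam210aHKO, against 92.9, 94.0 and 94.7 CPM in Ctrl. The Ctrl libraries lay within 2 CPM of each other and above all Fam210aHKO libraries. Means were 72.9 ± 13.0 CPM in Fam210aHKO and 93.9 ± 0.930 CPM in Ctrl (SD, n = 3 each). The log2 fold change of -0.37 (SE 0.152) missed the threshold (adjusted p = 0.0997, edgeR), and turned to 0.09 with library totals (adjusted p = 0.679). With the replicate number as a block it was -0.38 and called lower (adjusted p = 0.0364, edgeR), as it was without Fam210aHKO replicate 2 (-0.52, adjusted p = 0.0486). Its annotated model at chr13:23684199-23692908 has 2 exons, 1156 bases and no stem-loop, and 69.4% of its 50-base windows are its own.

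The other 5 tested members were not called, and in all 5 the groups overlapped. Hist2h2be, an H2B gene with all of its 50-base windows its own, was at 3.205, 2.75 and 2.19 CPM in Fam210aHKO, against 2.61, 4.55 and 2.69 CPM in Ctrl (log2 fold change -0.27, SE 0.295, edgeR adjusted p = 0.537). That difference turned to 0.20 with library totals. Hist2h3c2, an H3 gene, was at 0.670, 1.03 and 0.790 CPM in Fam210aHKO, against 1.22, 0.487 and 0.874 CPM in Ctrl (-0.06, SE 0.428, adjusted p = 0.931), and turned to 0.38 with library totals. Hist3h2a, an H2A gene, was at 2.06, 2.20 and 0.526 CPM in Fam210aHKO, against 0.783, 0.974 and 1.01 CPM in Ctrl (0.75, SE 0.505, adjusted p = 0.304).

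Hist3h2a showed a split within the knockout group, with replicate 3 below every Ctrl library and the others above. Without that replicate it was called higher (log2 fold change 1.19, edgeR adjusted p = 0.0284). It overlaps Trim17 on the same strand, which itself had 8 counts in Fam210aHKO and 5 in Ctrl. Hist1h1e, the third tested linker histone gene, had a log2 difference of 0.48 with an SE of 0.492 (edgeR adjusted p = 0.509), from 0.478, 1.10 and 0.8335 CPM in Fam210aHKO, against 0.348, 0.487 and 0.807 CPM in Ctrl. Hist1h2be had 0.77 (SE 0.598, adjusted p = 0.375), from 0.574, 0.894 and 1.71 CPM in Fam210aHKO, against 0.261, 0.325 and 1.21 CPM in Ctrl. The models of Hist1h1e and Hist1h2be overlap on the same strand, so their counts cannot be fully told apart.

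**Figure D2:**
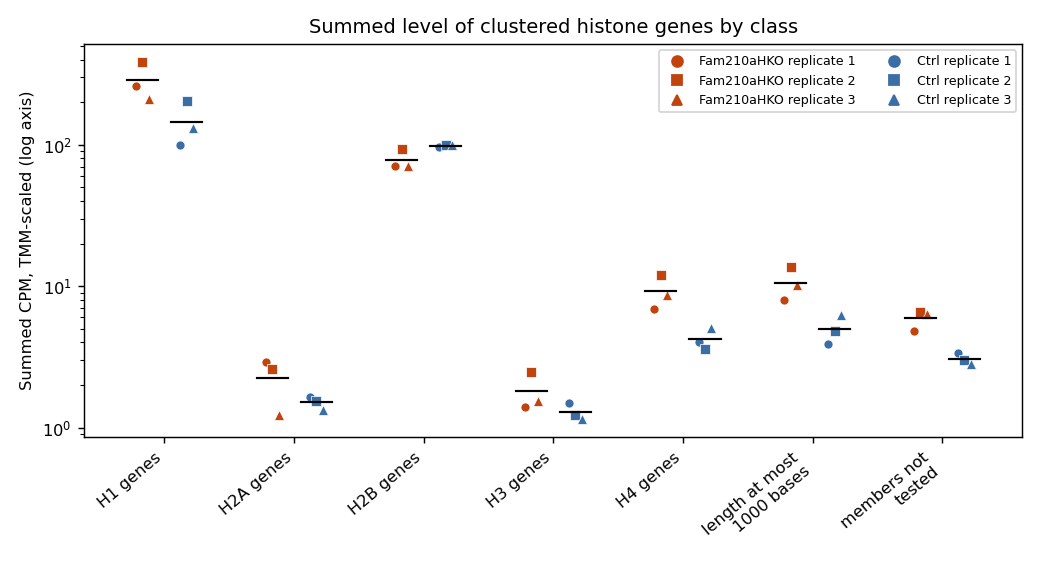
Summed CPM of clustered histone genes by class, for genes of at most 1000 bases and for members that did not pass the filter, on a log axis, with 1 symbol for each library and a bar for the group mean (Fam210aHKO left, Ctrl right). The H1 and H4 sums lie above all Ctrl libraries in all Fam210aHKO libraries, while the H2B sum lies below them, a direction that turns with library totals. The H1 sum is nearly all Hist1h1c and the H2B sum mostly Hist1h2bc.

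Summed over each class, H1 and H4 transcripts were higher in every Fam210aHKO library than in any Ctrl library, and those of H2A and H3 overlapped. These sums are descriptions without a test. H1 genes summed to 260, 385 and 212 CPM in Fam210aHKO, against 99, 202 and 131 CPM in Ctrl, nearly all of it Hist1h1c. H4 genes summed to 6.84, 12 and 8.69 CPM in Fam210aHKO, against 4, 3.57 and 5.04 CPM in Ctrl, a ratio of means of 2.19. The H4 sum drew on 12 of 13 genes with a count, Hist1h4h and Hist1h4i foremost. H2A genes summed to 2.92, 2.61 and 1.23 CPM in Fam210aHKO, against 1.65, 1.54 and 1.34 CPM in Ctrl. H3 genes summed to 1.39, 2.48 and 1.54 CPM in Fam210aHKO, against 1.48, 1.22 and 1.14 CPM in Ctrl. H2B genes summed to 71.1, 93.5 and 70.4 CPM in Fam210aHKO, against 96.4, 99.5 and 99.7 CPM in Ctrl, a ratio of 0.795 that became 1.09 with library totals. Of the 8270 H2B counts 7768 came from Hist1h2bc, which was not called, so this sum mostly repeats that gene.

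Grouped by gene structure, the genes whose models end at the stem-loop gave 1.32% of member counts. They summed to 4.26, 7.36 and 5.04 CPM in Fam210aHKO, against 1.74, 2.19 and 3.23 CPM in Ctrl (ratio 2.33). Hist1h4h, which also holds a polyadenylation signal, gave 311 of their 406 counts, so this sum mostly repeats a gene called higher. Genes whose models run past the stem-loop gave 72.2% of member counts and summed to 268, 396 and 220 CPM in Fam210aHKO, against 105, 206 and 137 CPM in Ctrl. Hist1h1c gave 21278 of these 22159 counts. Genes without a stem-loop in the model gave 26.5%, nearly all from Hist1h2bc, and summed to 70.1, 92.1 and 68.5 CPM in Fam210aHKO, against 96, 99.2 and 97.7 CPM in Ctrl. All Fam210aHKO libraries lay below all Ctrl libraries in that sum, with a ratio of 0.788 that turned to 1.08 with library totals. Leaving out Hist1h1c and Hist1h2bc, the remaining 65 members summed to 17.4, 25.4 and 19.5 CPM in Fam210aHKO, against 11.4, 12.4 and 13.8 CPM in Ctrl, a ratio of 1.66, or 2.26 with library totals. In the other 3 sums all Fam210aHKO libraries lay above all Ctrl libraries, and in all 4 replicate 2 was the highest of the knockout group.

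The 57 members that did not pass the filter had at most 42 counts each over all libraries. In 31 the mean CPM was higher in Fam210aHKO, in 9 it was lower, and 17 were without a count. The same split over all genes that did not pass the filter was not computed. After scaling, 3 counts corresponded to 0.144, 0.206 and 0.132 CPM in Fam210aHKO, against 0.261, 0.244 and 0.202 CPM in Ctrl. At an equal low level more counts therefore fall in the Fam210aHKO group. Together the 57 members summed to 4.83, 6.54 and 6.40 CPM in Fam210aHKO, against 3.39, 3 and 2.82 CPM in Ctrl, with no overlap. Over all 67 members the groups did not overlap with Fam210aHKO higher in 9 and with Fam210aHKO lower in 1, and among the tested members in 4 and 1. Of all tested genes 22% did not overlap in the higher direction and 20.7% in the lower. These shares stand beside the 4 and 1 among tested members. A share that includes genes below the filter, to set beside the 9 and 1, was not computed.

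Hist1h2bq, an H2B gene, had 1, 5 and 16 counts in Fam210aHKO, against 2, 0 and 1 in Ctrl. The ratio of scaled totals was 4.87 (95% exact binomial interval 1.46 to 25.4, counting error only), and most of it came from replicate 3. Only 2.68% of its 50-base windows are its own, and it shares most with Hist1h2br, so its count is uncertain. Hist1h4n, an H4 gene with 14.4% of windows its own, had 5, 1 and 8 counts in Fam210aHKO, against 1, 0 and 1 in Ctrl (ratio 4.65, interval 1.07 to 42.2). Hist1h3d, an H3 gene with 75.2% of windows its own, had 3, 9 and 3 counts in Fam210aHKO, against 1, 2 and 0 in Ctrl (ratio 3.32, interval 0.94 to 17.9). Hist1h3c and Hist3h2ba each had 2, 1 and 2 counts in Fam210aHKO and none in Ctrl. With Ctrl set to a floor of 3 counts over the group the ratio was 1.11. That value leaves out the counting error of the Fam210aHKO counts, so it is no lower limit. Hist1h1a and Hist1h1b, linker histone genes whose 50-base windows are all their own, had 4 counts each in Fam210aHKO and 0 in Ctrl. Against the same floor these gave a ratio of 0.886.

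**Figure D3:**
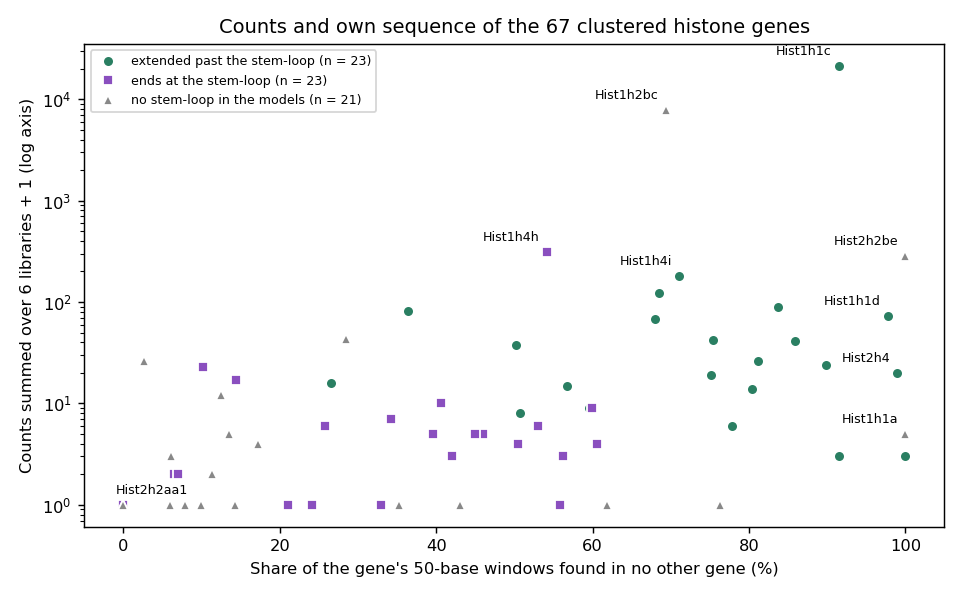
Counts of each of the 67 members summed over 6 libraries plus 1 (log axis) against the share of its 50-base windows found in no other annotated gene, with symbols for the structure of the gene model. Members with no window of their own lie at 0 counts, and Hist1h1c and Hist1h2bc lie above all others.

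The members differ widely in how much of their sequence is their own, which bears on any count per gene. A median of 45.9% of a member's 50-base windows occurred in no other annotated gene, with a range of 0% to 100%. For the 17 members without a count the median was 14.2%, and for the 50 with a count it was 55.2%. The 5 members with no window of their own, Hist2h2aa1, Hist2h2aa2, Hist2h2bb, Hist2h3b and Hist2h3c1, all had 0 counts. The sources used here do not say how reads with several matches were counted, so a count of 0 for these genes does not measure their RNA. The 4 members with only windows of their own, Hist1h1a, Hist1h1b, Hist1h1t and Hist2h2be, had 2 to 283 counts.

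RNA without a poly(A) tail was compared across libraries because most members normally lack one. Small nuclear RNA took 0.000995%, 0.000765% and 0.000865% of counts in Fam210aHKO, against 0.00112%, 0.00124% and 0.000622% in Ctrl. Small nucleolar RNA took 0.00188%, 0.0013% and 0.00143% in Fam210aHKO, against 0.00159%, 0.00192% and 0.00126% in Ctrl. Rn7sk, an abundant nuclear RNA without a tail, was at 4.59, 3.85 and 3.82 CPM in Fam210aHKO, against 4.78, 8.36 and 3.50 CPM in Ctrl (log2 fold change -0.43, SE 0.305, edgeR adjusted p = 0.323). The groups overlapped in all 3 measures. Ribosomal RNA other than mitochondrial stood out only in Fam210aHKO replicate 1. The same 4 members were called without that library, and without the ribosomal RNA genes, Lars2 and Gm23935, which also stood apart in it. Mitochondrial ribosomal RNA, counted separately, took 0.39%, 0.00458% and 0.00374% of counts in Fam210aHKO, against 0.00167%, 0.00133% and 0.00122% in Ctrl, with no overlap. The reason for that difference was not tested.

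Markers of S phase and proliferation were higher in Fam210aHKO, with 16 of 25 tested genes called higher and 2 lower, and a median log2 fold change of 1.01 against 0.02 over all tested genes. Among all tested genes 14% were called higher and 13.5% lower. The summed level of these markers was 259, 268 and 317 CPM in Fam210aHKO, against 164, 175 and 152 CPM in Ctrl. It was highest in Fam210aHKO replicate 3, whereas the summed clustered histone genes were highest in replicate 2, at 342, 495 and 294 CPM in Fam210aHKO against 203, 307 and 238 CPM in Ctrl. Mki67, a marker of cycling cells, was at 29.95, 30.2 and 51.0 CPM in Fam210aHKO, against 1.65, 5.36 and 2.89 CPM in Ctrl (log2 fold change 3.49, SE 0.372, edgeR adjusted p = 8.14e-05). Ccna2, the cyclin of S and G2 phase, had 3.72, and Top2a, a topoisomerase of dividing cells, had 3.57. Pcna, the replication clamp, did not pass (0.13, adjusted p = 0.535), and was called with library totals (0.59, adjusted p = 0.00857). Tk1, an enzyme of nucleotide synthesis, fell by 1.47 on the log2 scale (adjusted p = 0.00269).

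Of the transcription regulators of histone genes 1 of 13 was called, and the median log2 fold change was 0.22. Ccne1, the cyclin that drives entry into S phase, was at 3.40, 3.92 and 2.325 CPM in Fam210aHKO, against 0.609, 0.406 and 0.403 CPM in Ctrl (log2 fold change 2.75, SE 0.367, edgeR adjusted p = 0.000331). Npat, the coactivator of histone genes that cyclin E and Cdk2 phosphorylate, had 0.22 (adjusted p = 0.511), which turned to -0.01 without Fam210aHKO replicate 3 and was called with library totals (0.68, adjusted p = 0.0247). Hinfp, a transcription factor for H4 genes, had 0.50 (adjusted p = 0.0526), and 0.50 with the replicate block (adjusted p = 0.0343). With library totals 7 of the 13 were called higher, where 42.7% of all tested genes were.

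Of the genes for the machinery that makes the stem-loop end, 1 of 20 tested was called under TMM scaling, with a median log2 fold change of 0.03, against 11 called higher with library totals, where 42.7% of all tested genes were. Slbp, the stem-loop binding protein, was at 10.3, 12.1 and 9.65 CPM in Fam210aHKO, against 11.7, 13.2 and 10.7 CPM in Ctrl, a log2 difference of -0.16 with an SE of 0.18 (edgeR adjusted p = 0.562) that turned to 0.30 with library totals. Snrpb, a core protein of the U7 and spliceosomal snRNPs, rose by 0.52 on the log2 scale (adjusted p = 0.0121), a call lost without Fam210aHKO replicate 2 (0.0585) or Ctrl replicate 3 (0.055). Lsm11, a protein of the U7 snRNP, had 0.54 (adjusted p = 0.164), and was called with library totals (adjusted p = 0.00818). Casp8ap2, a factor of histone pre-mRNA processing, had -0.21 (adjusted p = 0.513), or 0.25 with library totals. Of 8 decay genes only Eri1, the exonuclease that trims the stem-loop end, was called (0.675, adjusted p = 0.0233), and its call was lost in both fits on FPKM and without Fam210aHKO replicate 1 (0.0741), Fam210aHKO replicate 2 (0.0756) or Ctrl replicate 1 (0.0802).

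Variant histones are encoded outside the clusters, mostly by ordinary polyadenylated mRNAs that poly-T beads capture. Of 11 tested, 3 were higher and 1 was lower, with a median log2 fold change of -0.10. Among all tested genes 14% were called higher and 13.5% lower. Cenpa, the H3 variant of centromeres, was at 8.42, 10.9 and 17.55 CPM in Fam210aHKO, against 4.35, 3.49 and 3.83 CPM in Ctrl (log2 fold change 1.66, SE 0.276, edgeR adjusted p = 0.0013). H2afx, which is phosphorylated at DNA breaks, was at 11.15, 11.1 and 12.3 CPM in Fam210aHKO, against 6.70, 4.95 and 5.78 CPM in Ctrl (0.99, adjusted p = 0.00309). H2afz rose by 0.51 on the log2 scale (adjusted p = 0.0208), a call lost without Fam210aHKO replicate 2 or 3 or Ctrl replicate 1 or 3 (0.0534 to 0.088). H2afv, its close relative, fell by 0.725 (adjusted p = 0.014), and it was not called with library totals (-0.28, adjusted p = 0.261), without Fam210aHKO replicate 2 (0.0598) or without Ctrl replicate 1 (0.0559).

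The replacement linker histone H1f0, which accumulates in cells that stop dividing, was at 119, 121 and 159.7 CPM in Fam210aHKO, against 137, 231 and 164 CPM in Ctrl. Its log2 difference of -0.41, with an SE of 0.203 (edgeR adjusted p = 0.161), did not pass and was 0.06 with library totals. Whether H1f0 and Hist1h1c differed in their change was not tested. H3f3a and H3f3b, the genes of the replacement H3, had log2 differences of -0.12 (adjusted p = 0.576) and -0.17 (adjusted p = 0.488), or 0.34 and 0.29 with library totals. H2afj had 0.52 (adjusted p = 0.0977), and with the replicate block it was called (adjusted p = 0.0147), as it was without Fam210aHKO replicate 3 (0.0266) or Ctrl replicate 1 (0.0441).

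Histone chaperones, which carry histones to the replication fork and into chromatin, had 7 of 28 genes called higher and 1 lower, with a median log2 fold change of 0.23. Among all tested genes 14% were called higher and 13.5% lower. With library totals 19 chaperones were called higher, where 42.7% of all tested genes were. Chaf1a and Chaf1b, subunits of the assembly factor that works behind the replication fork, had log2 fold changes of 1.70 (adjusted p = 0.0036, edgeR) and 1.14 (adjusted p = 0.0158), the second call being lost without Ctrl replicate 3 (0.0703). Asf1b, which hands H3 and H4 to that factor, had 1.35 (adjusted p = 0.0382) but was not called with DESeq2 (adjusted p = 0.0867) or without any single library except Ctrl replicate 2 (0.0529 to 0.148). The nucleolar chaperones Ncl and Npm1 had 1.17 (adjusted p = 0.00128) and 1.08 (adjusted p = 0.0032). Nasp, which stores free H3 and H4, had -0.04 (adjusted p = 0.926), or 0.435 with library totals. Rbbp4 fell by 0.43 (adjusted p = 0.0337), a direction that turned to 0.02 with library totals, and the call was lost with no count filter (0.119) and without any 1 of the Fam210aHKO libraries or Ctrl replicate 3 (0.0699 to 0.104).

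**Figure D4:**
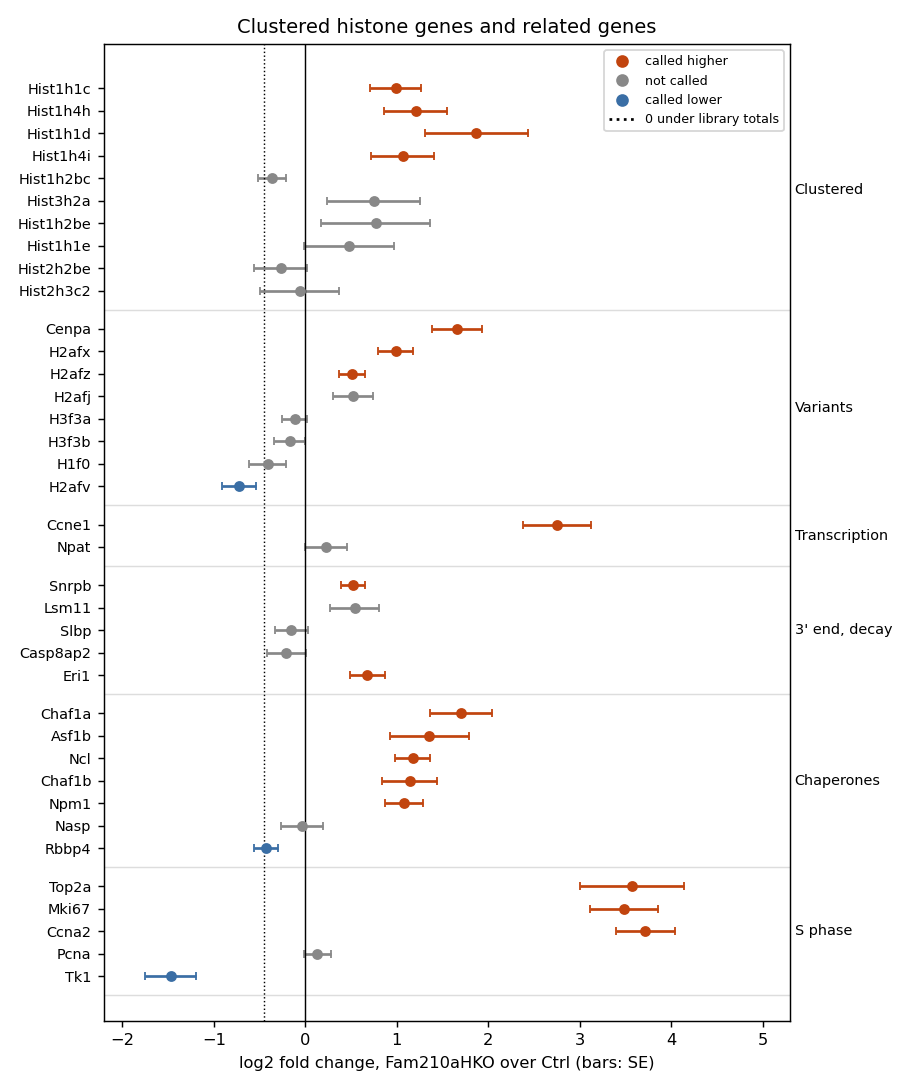
Log2 fold change of Fam210aHKO over Ctrl with its SE (bars) for the 10 tested clustered histone genes and for named genes of related lists, coloured by edgeR call. The dotted line marks where 0 would lie with library totals, so genes between it and the solid line turn direction with that scaling. Ccne1, Mki67, Top2a and Ccna2 lie further to the right than any clustered histone gene.

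Cell type markers also moved with the group, and in whole liver fewer cells of a type and less RNA per cell cannot be told apart. Hepatocyte markers, all 9 with counts, summed to 87500, 91400 and 112000 CPM in Fam210aHKO, against 155000, 240000 and 163000 CPM in Ctrl, with 5 of 9 lower. Alb gave most of this sum, at 68240, 68150 and 86550 CPM in Fam210aHKO, against 110600, 183900 and 115000 CPM in Ctrl. It was not called (log2 fold change -0.88, SE 0.791, edgeR adjusted p = 0.449). Macrophage markers summed to 786, 922 and 1270 CPM in Fam210aHKO, against 731, 879 and 686 CPM in Ctrl, with 4 of 16 higher. Cholangiocyte markers summed to 237, 136 and 275 CPM in Fam210aHKO, against 58.6, 51.1 and 39.3 CPM in Ctrl, with 3 of 5 tested higher. Most of that sum was Spp1, at 217, 127 and 256 CPM in Fam210aHKO, against 49.7, 44.8 and 32.7 CPM in Ctrl. Spp1 is also in the macrophage list and is among the genes called higher there. Cldn4 and Epcam were called higher too, and Krt19 and Sox9 were not called. Markers of endothelial cells had 2 of 10 genes lower, those of stellate cells 2 of 10 higher, and those of lymphocytes and neutrophils none called. Among all tested genes 14% were called higher and 13.5% lower. Of 6 tested erythroid markers 2 were lower, while the other 4, all globin genes, had log2 fold changes of 1.22 to 1.75 that did not pass. Erythroid markers summed to 42.2, 25 and 239 CPM in Fam210aHKO, against 88.3, 87.4 and 88.9 CPM in Ctrl, so that Fam210aHKO replicate 3 stood above all other libraries and replicates 1 and 2 below all Ctrl libraries. The part of cell composition in the levels of the clustered histone genes was not tested.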

How the data were processed

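The authors deposited raw counts per gene and, in a separate table, FPKM. Dividing counts by the deposited FPKM and by gene length gave the library size behind the FPKM, which amounted to 86.3%, 82.8% and 81.6% of the library's counts in Fam210aHKO and to 60.1%, 55.4% and 59.4% in Ctrl. The submitters' processing notes name STAR and featureCounts with mm10, besides FastQC, Trimmomatic and DESeq2. The sources used here do not give the strand setting or say how reads with several matches were treated. The members and gene lists were chosen with earlier results of these data known.

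All 6 libraries were fitted together in edgeR 4.0.16 (R 4.3.3) with group as the only factor. Genes were filtered by filterByExpr (minimum count 10), scaled by TMM and tested two-sided by the quasi-likelihood F test over 13706 genes, with Benjamini-Hochberg adjustment and a threshold of 0.05. The SE was taken as the size of the log2 fold change over the root of F. The fit was tested on simulated data. Named were all called members, the 10 of highest CPM per kilobase and genes set by rule for each list. Exact binomial intervals cover counting error only, and the interval of a log2 fold change is the normal 95% interval from its SE, which includes the spread between libraries.

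Stem-loops, polyadenylation signals and shared 50-base windows came from GENCODE mouse release 21, in which all 67 members were matched, 64 with the table's gene length as that of the longest model. Promoters came from RefSeq. Deviations from group means correlated at 0.245, 0.182 and 0.155 between libraries with the same replicate number and at -0.141 to -0.0262 between others. Such deviations sum to 0 within a group, so the negative values follow in part from the positive ones. The numbers may pair the samples, but the main fit did not use them. A fit with the replicate number as a block was an alternative, and it called 2433 genes higher and 2463 lower, against 1922 and 1852 in the main fit. The scaling was also varied (upper-quartile factors, median-of-ratios factors, library totals), as were the filter (none, or CPM above 1 in 3 libraries) and the test, with limma-voom (limma 3.58.1), DESeq2 1.42.0, the legacy robust test, limma on log2(FPKM + 1) and log2(FPKM + 0.1), a threshold of 0.01 and fits that each left out a library. A fit without ribosomal RNA genes, Lars2 and Gm23935 was chosen after seeing the data. A few single-gene results are not reported here.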

Additional observations from a re-analysis of the deposited data

How the results depend on the processing

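The same 4 members were called higher with median-of-ratios factors, upper-quartile factors, library totals, no filter (50 members tested), the legacy robust test and the replicate block, and 3 of them with DESeq2, limma-voom, CPM above 1 in 3 libraries (Hist1h1d not tested) and both fits on FPKM. At an adjusted p under 0.01 there were 0. Leaving out 1 library gave 0 to 4 members higher and 0 to 1 lower, and the replicate block gave 1 lower. Leave-one-out counts were 2 to 5 for variant histones, 0 to 1 for 3 prime end processing, 0 to 1 for decay, 4 to 8 for chaperones, 13 to 18 for S phase markers and 1 to 1 for regulators. The summed ratio of Fam210aHKO to Ctrl was 1.27 to 1.71 over all members and 1.47 to 1.79 without Hist1h1c and Hist1h2bc. Library totals gave ratios of 2.08 and 2.26 and called 11 processing, 4 decay, 7 regulator and 19 chaperone genes, all higher, where 42.7% of all tested genes were called higher. Upper-quartile factors and the replicate block each called 2 regulators, both fits on FPKM called 0 decay genes, and a threshold of 0.01 left 2 variant histones, 0 processing, 0 decay and 4 chaperone genes. With library totals the log2 fold change turned to 0.0863 for Hist1h2bc, 0.197 for Hist2h2be, 0.376 for Hist2h3c2, 0.29 for H3f3b, 0.341 for H3f3a, 0.018 for Rbbp4, 0.0573 for H1f0, 0.302 for Slbp, 0.25 for Casp8ap2 and 0.435 for Nasp, by construction of the scaling. Nasp turned to 0.00469 with no filter, 0.0156 with limma-voom, 0.0066 with the replicate block, 0.0612 without Fam210aHKO replicate 3 and 0.253 without Ctrl replicate 2. Hist2h3c2 turned to 0.0494 without Fam210aHKO replicate 1 and 0.232 without Ctrl replicate 1, Hist2h2be to 0.0192 without Ctrl replicate 2 and Npat to -0.014 without Fam210aHKO replicate 3, and the cause was not tested. Leave-one-out values ran from -0.433 to 0.0192 for Hist2h2be, from -0.35 to 0.232 for Hist2h3c2, from -0.249 to 0.253 for Nasp and from -0.014 to 0.358 for Npat. Of 186 values of the 10 tested members under alternatives, 153 kept their direction and side of the threshold. The replicate block changed the calls of Hist1h2bc, Hinfp and H2afj and of no other gene named here. Low counts limit all members but Hist1h1c and Hist1h2bc.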
